A study of Homo sapiens with 6 samples.

Results

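The A2058 line carrying wild-type TET2 (TET2WT) was set against the control line named Mock. A2058 is an established human melanoma line. The comparison used 4 of the 6 arrays of the series, chosen by their labels: TET2WT and Mock cells after 7 days in DMEM medium with 4.5 g/L (high) or 1 g/L (normal) glucose, 1 array each. The other 2 arrays held a line called TET2M, or Mut in another label, under the same conditions. All 3 lines share the A2058 background, and the sources used here do not state the change carried by TET2M, the promoter driving the constructs or whether a line is a clone or a pool. Of 41091 probe sets assigned to a single gene, covering 19775 genes, 14428 genes had a probe set whose mean reached the low-value level of 2.64 on the log2 scale, and each was represented by its brightest probe set.

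TET2 is a dioxygenase that uses 2-oxoglutarate and iron to oxidise 5-methylcytosine in DNA, the first step of active demethylation. It also recruits other proteins to chromatin, among them histone deacetylases at some inflammatory genes. Melanomas commonly have low levels of 5-hydroxymethylcytosine, the product of TET enzymes, and melanoma cells often secrete CXC chemokines under the control of the transcription factor NF-kB.

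All values are log2 probe set values, and all differences are log2 differences of TET2WT minus Mock, averaged over high and normal glucose and given ± the standard error from limma. A gene passed, and is said to have risen or fallen, when its Benjamini-Hochberg adjusted p in limma was under 0.05. The error came from how far the line differences varied between the concentrations across the 6 arrays, which left 2 residual degrees of freedom. Since each line was measured once at each concentration and nothing in the labels names separate cultures, the p-values measure only the spread between these arrays, which may be technical. The counts lean on the TET2M arrays for that spread: with the 4 TET2WT and Mock arrays alone 16 genes passed, and with any of those 4 left out 0 passed, both with 1 residual degree of freedom. As in any bulk sample, fewer cells expressing a gene and less RNA per cell cannot be told apart.

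The promoters of 9 genes that the results turn on are shown first. They come from RefSeq (GRCh38.p14) as the 250 bases before the annotated start, 5′ to 3′ on the strand of the gene. The first 4 belong to the CXC chemokine genes that fell most, and their capitals mark GGAATTTCC, a sequence common among NF-kB sites, searched on both strands. CXCL1 lies at chr4:73869143-73869392 (+), CXCL2 at chr4:74099196-74099445 (-), CXCL3 at chr4:74038690-74038939 (-) and CXCL8 at chr4:73740319-73740568 (+).
CXCL1: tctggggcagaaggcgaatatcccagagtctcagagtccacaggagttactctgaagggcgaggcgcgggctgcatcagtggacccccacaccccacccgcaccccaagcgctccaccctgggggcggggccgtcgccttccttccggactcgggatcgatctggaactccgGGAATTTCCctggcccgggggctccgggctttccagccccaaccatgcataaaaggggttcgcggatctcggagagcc
CXCL2: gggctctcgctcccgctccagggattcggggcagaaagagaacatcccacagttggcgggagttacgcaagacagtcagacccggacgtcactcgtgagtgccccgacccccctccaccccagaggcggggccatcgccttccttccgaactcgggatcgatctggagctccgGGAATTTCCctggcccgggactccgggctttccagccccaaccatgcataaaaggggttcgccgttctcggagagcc
CXCL3: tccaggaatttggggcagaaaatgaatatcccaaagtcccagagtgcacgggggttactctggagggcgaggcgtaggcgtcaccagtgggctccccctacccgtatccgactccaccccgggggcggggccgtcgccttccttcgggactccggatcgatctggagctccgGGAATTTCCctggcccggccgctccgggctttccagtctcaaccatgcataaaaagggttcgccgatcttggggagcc
CXCL8: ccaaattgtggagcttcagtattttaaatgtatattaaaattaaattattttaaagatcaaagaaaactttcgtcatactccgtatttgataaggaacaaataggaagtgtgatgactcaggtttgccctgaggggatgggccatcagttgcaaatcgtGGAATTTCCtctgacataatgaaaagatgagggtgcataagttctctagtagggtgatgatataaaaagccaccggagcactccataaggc

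The next promoters belong to a pair of interferon-response genes that rose, IFITM1 at chr11:313790-314039 (+) and ISG15 at chr1:1013247-1013496 (+). Capitals mark GAAANNGAAA, the core of the interferon-stimulated response element, on either strand.
IFITM1: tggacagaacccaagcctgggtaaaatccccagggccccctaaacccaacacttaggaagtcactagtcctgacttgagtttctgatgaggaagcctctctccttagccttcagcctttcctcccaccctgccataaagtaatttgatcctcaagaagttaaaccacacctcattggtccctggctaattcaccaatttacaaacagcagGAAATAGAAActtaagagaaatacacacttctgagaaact
ISG15: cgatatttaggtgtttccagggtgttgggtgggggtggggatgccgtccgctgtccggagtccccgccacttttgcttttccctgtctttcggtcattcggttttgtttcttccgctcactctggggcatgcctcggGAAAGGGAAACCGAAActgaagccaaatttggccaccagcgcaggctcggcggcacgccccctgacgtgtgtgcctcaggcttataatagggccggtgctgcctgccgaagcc

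The last set belongs to 3 of the genes that rose most: HSD17B3 at chr9:96302177-96302426 (-), SEMA3G at chr3:52445104-52445353 (-) and CFAP251 at chr12:121918342-121918591 (+). Capitals mark CG dinucleotides, the sites at which DNA is methylated in most human cells.
HSD17B3: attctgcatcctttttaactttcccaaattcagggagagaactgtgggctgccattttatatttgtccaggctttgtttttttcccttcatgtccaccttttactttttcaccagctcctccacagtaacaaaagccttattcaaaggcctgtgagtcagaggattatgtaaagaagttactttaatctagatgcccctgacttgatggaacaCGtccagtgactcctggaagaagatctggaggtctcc
SEMA3G: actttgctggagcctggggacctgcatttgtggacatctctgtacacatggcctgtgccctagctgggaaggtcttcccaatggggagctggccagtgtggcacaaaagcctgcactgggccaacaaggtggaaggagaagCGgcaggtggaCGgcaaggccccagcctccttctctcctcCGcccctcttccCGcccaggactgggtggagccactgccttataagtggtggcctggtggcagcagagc
CFAP251: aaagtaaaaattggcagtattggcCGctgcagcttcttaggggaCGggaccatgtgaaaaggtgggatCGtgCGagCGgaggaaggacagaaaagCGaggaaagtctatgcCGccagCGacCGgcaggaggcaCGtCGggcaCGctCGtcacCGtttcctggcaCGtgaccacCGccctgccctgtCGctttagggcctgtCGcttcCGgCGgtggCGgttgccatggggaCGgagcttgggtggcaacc

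TET2 itself was far higher in the line labelled TET2WT. Its brightest probe set read 9.54 (high glucose) and 9.68 (normal) there, against 3.81 and 4.13 in Mock, so the groups did not overlap. The difference was 5.64 ± 0.14, about 49.9-fold (adjusted p = 7.31e-05, limma). A further TET2 probe set differed by 4.39, while the remaining one differed by 0.00 and read from 5.15 to 5.30 on the 4 arrays. In the TET2M line the brightest probe set stood between the other lines, at 7.57 and 7.37.

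Of the 14428 genes, 608 passed (4.21%), 290 rising (2.01%) and 318 falling (2.20%) in TET2WT. The counts in each gene list below are to be read against these shares. An unadjusted p under 0.05 (limma) was found for 2917 of the 14428 genes, both directions together. The unadjusted counts in the lists are to be read against that number, with the higher and lower counts of a list added together. No share for a single direction over all genes is given, and a lean of a list to either side at that level was not tested. The median size of these differences was 0.77 and the smallest was 0.46, while the median over all tested genes was -0.01. At least 2-fold apart were 171 of them, 84 higher and 87 lower, and at least 8-fold apart 5 higher and 9 lower. All 608 lay on the same side of Mock at both concentrations, which the test favours, since its error grows with the gap between the concentrations. By a rule with no variance estimate, 406 genes (2.81%) were 1.5-fold or more apart on the same side of Mock at each concentration, 195 higher and 211 lower, and 380 of them had also passed.

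**Figure D1:**
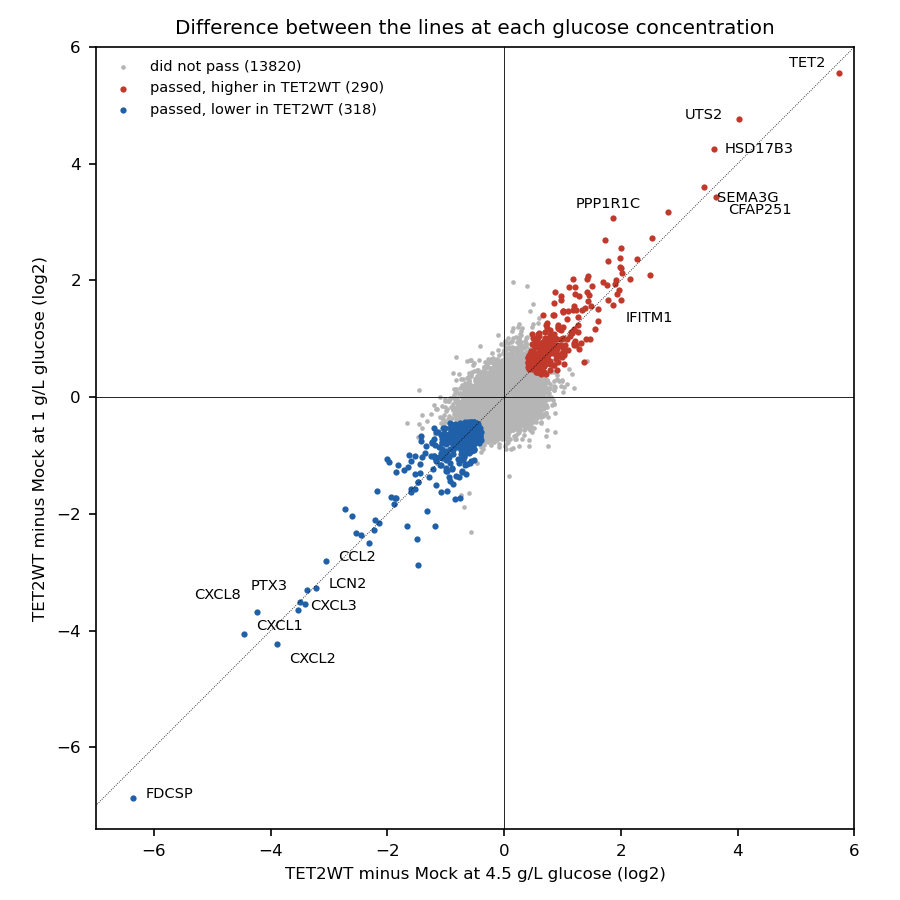
Log2 difference of TET2WT minus Mock at 4.5 g/L glucose (horizontal axis) against that at 1 g/L glucose (vertical axis), 1 point for each of 14428 tested genes, with the 290 genes that rose in red, the 318 that fell in blue and the dotted line marking equal differences. The genes farthest from 0 lie near the dotted line, from FDCSP at -6.36 and -6.86 to TET2 at 5.73 and 5.55.

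The genes that rose most were not of a single kind. UTS2, which encodes the vasoactive peptide urotensin-2, read 6.31 and 7.06 in TET2WT at high and normal glucose and 2.29 and 2.30 in Mock, where both arrays lay below the low-value level, so its difference of 4.39 ± 0.21 (adjusted p = 0.000442, limma) was measured against background. A further UTS2 probe set stayed below the level on all 6 arrays. HSD17B3, the enzyme that makes testosterone from androstenedione, read 8.10 and 8.48 against 4.50 and 4.22, a rise of 3.93 ± 0.16. The sperm flagellum gene CFAP251 read 6.69 and 6.10 against 3.06 and 2.67. The class 3 semaphorin gene SEMA3G read 6.83 and 7.14 against 3.40 and 3.54. All 4 genes were separated between the lines at each concentration, which follows from choosing genes with large differences at both. None of the 4 passed between TET2M and Mock, where the differences were -0.12, -0.44, 0.21 and -0.58 in the same order.

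PPP1R1C, which inhibits protein phosphatase 1, rose by 2.99 ± 0.17, and CHRNA9, a subunit of nicotinic acetylcholine receptors, by 2.63 ± 0.094. GPX3, a glutathione peroxidase of plasma (2.32 ± 0.099), TIMP4, an inhibitor of metalloproteinases (2.30 ± 0.15), and NALCN, a sodium leak channel (2.28 ± 0.15), also rose. CHRNA9, TIMP4 and MBL2, a serum lectin gene (2.09 ± 0.16), read at or below 2.62 on both Mock arrays, below the low-value level, so their differences too were measured against background. The calcium-binding protein gene S100A2 was the brightest of the 25, at 12.00 and 11.64 in TET2WT and 10.23 and 9.72 in Mock. The secreted kinase gene PKDCC (2.12), the aminopeptidase gene AOPEP (2.07), the phosphatase gene PTPRE (2.06), the ubiquitin ligase gene FBXO32 (1.86), the proteoglycan gene SRGN (1.84), the adenylate kinase gene AK5 (1.84), PROSER2 (1.91) and CAPS (1.72) also rose. Of the 25 genes with the largest of these rises, TET2 and CT55, a cancer-testis gene (1.96 in TET2WT), were the 2 that also passed between TET2M and Mock, at 3.50 and 1.36.

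The genes that fell most were led by secreted inflammatory proteins. FDCSP, a small secreted peptide first found in follicular dendritic cells, read 2.23 and 1.88 in TET2WT, below the low-value level, and 8.59 and 8.74 in Mock. Its fitted difference was -6.61 ± 0.14 (adjusted p = 7.31e-05, limma), a value set against background. In TET2M it read 5.70 and 5.84, between the other lines. The cell adhesion gene TENM2 fell from 5.92 and 5.74 to 2.50 and 2.20 (-3.48 ± 0.089), and the transcription factor gene SOX11 from 6.98 and 7.41 to 3.61 and 4.11 (-3.34 ± 0.12). The RNA-binding protein gene ELAVL2 (-2.43), the chloride channel gene ANO1 (-2.32), the microfibril gene MFAP2 (-1.86), the sorting receptor gene SORCS1 (-1.80), BEX1 (-1.80) and the actin-binding protein gene ENC1 (-1.61) fell too. TENM2, ELAVL2 and ZFPM2, named next, read below the low-value level on both TET2WT arrays, so these falls also end at background.

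Of the 25 genes with the largest falls, 10 also passed between TET2M and Mock: FDCSP, CXCL1, CXCL2, CXCL3, CXCL8, PTX3, LCN2, CCL2, TNFAIP3 and ZFPM2. The first 9 were lower in TET2M as well, at differences from -2.90 (FDCSP) to -1.52 (TNFAIP3). ZFPM2, a GATA cofactor, went the other way: it was lowest in TET2WT (2.31 and 2.16), intermediate in Mock (4.54 and 4.43) and highest in TET2M (6.28 and 6.37). HBE1, the embryonic globin gene, had the same order of lines, at 4.13 and 4.24, 6.06 and 5.95, and 6.84 and 7.16, but its difference between TET2M and Mock (1.00) did not pass (adjusted p = 0.0988, limma). Both comparisons use the same Mock arrays, so the values of the lines are given side by side and their likeness was not tested.

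**Figure D2:**
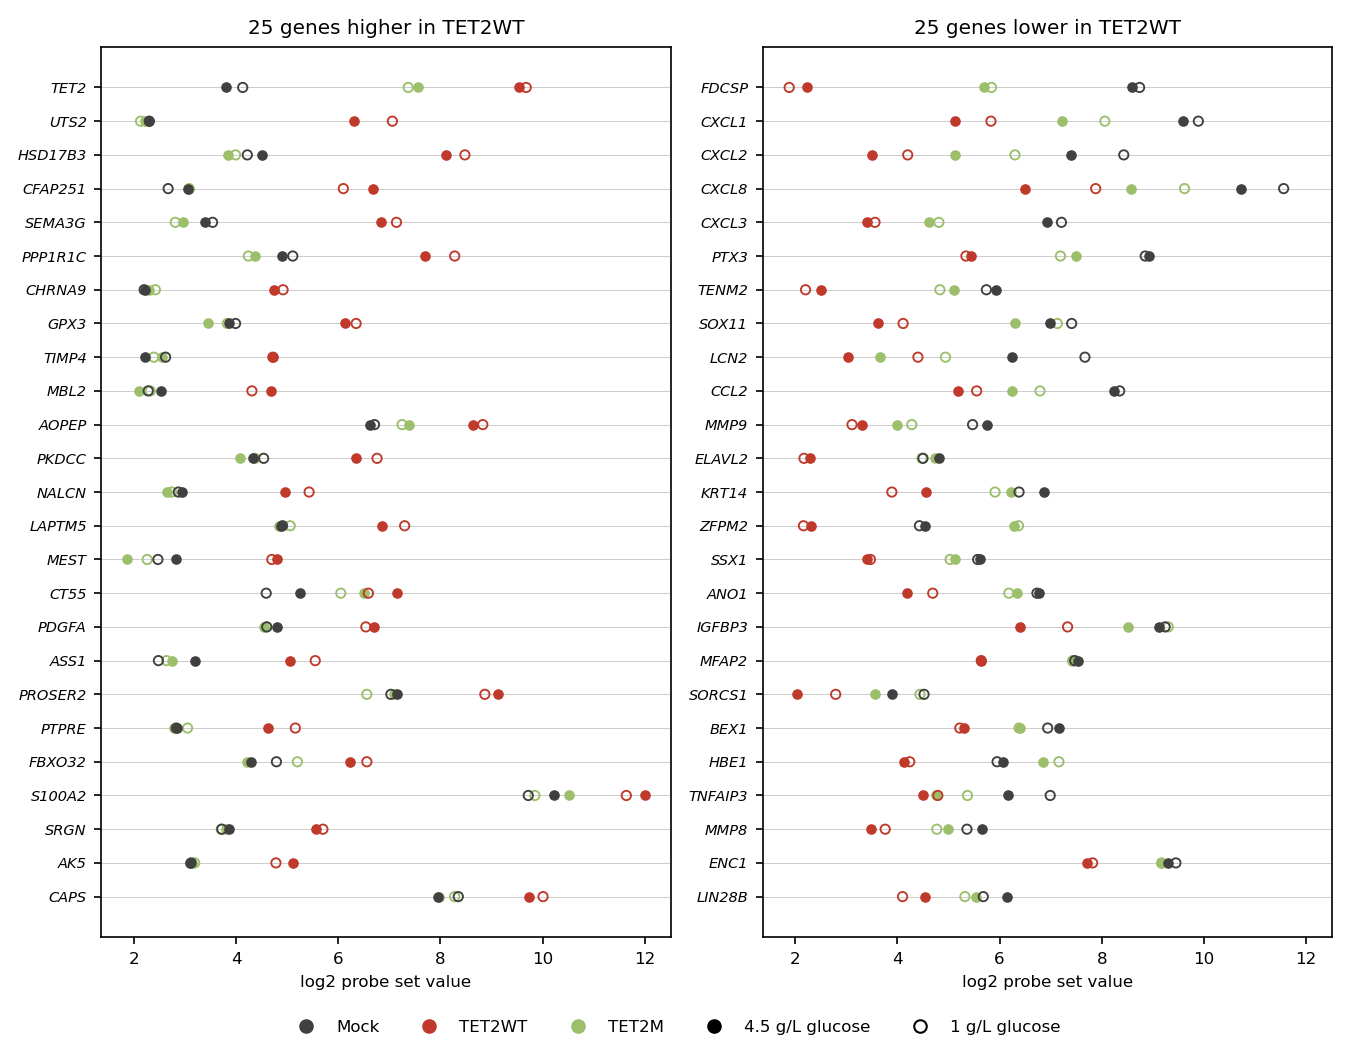
Log2 probe set value on each array for the 25 genes with the largest rises (left) and the 25 with the largest falls (right) in TET2WT, in order of the smaller of the differences at both concentrations. Filled points are 4.5 g/L and open points 1 g/L glucose, with Mock in black, TET2WT in red and TET2M in green. TET2WT and Mock points are separated in every row, which the choice by the smaller difference favours. TET2M lies near Mock in most rows at left and between the lines for FDCSP and the CXC chemokine genes at right.

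Chemokines, secreted proteins that draw leukocytes, made up 5 of the 25 genes with the largest falls. Of 15 chemokine genes tested, 7 fell and 0 rose (46.7% falling, against 2.20% of all genes, limma), 0 had an unadjusted p under 0.05 in the higher direction, and the median over the list was -0.06. CXCL1, a neutrophil attractant, read 5.13 and 5.83 in TET2WT and 9.59 and 9.89 in Mock (-4.26 ± 0.14, adjusted p = 0.000180, limma). CXCL2 read 3.50 and 4.20 against 7.39 and 8.43, and CXCL3 read 3.40 and 3.56 against 6.93 and 7.21. CXCL8, or interleukin-8, read 6.49 and 7.88 against 10.73 and 11.56. These 4 genes lie near each other on chromosome 4 and share a receptor. They were separated between the lines by 3.53 or more at each concentration, which the choice of the largest falls favours. The monocyte attractant gene CCL2, on chromosome 17, fell by 2.93 on the log2 scale. CCL20 (-0.92 ± 0.15) and CXCL10 (-0.90 ± 0.12) fell less, CXCL10 from 3.46 and 3.43 to values under the low-value level. The 8 members that did not pass, among them CXCL12, CXCL14, CXCL16 and CX3CL1, had differences from -0.06 to 0.29, and 9 further chemokine genes were left out as below the level.

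The letters GGAATTTCC occurred in the promoters of all 4 CXC genes named first, beginning 78 bases before the start in CXCL1 and CXCL3, 77 in CXCL2 and 91 in CXCL8. Of 11514 tested genes with promoter windows of 300 bases (250 before and 50 after the start), 65 held these letters (0.565%). Of the 258 genes that fell and had a window, 6 held them (2.33%): CXCL1, CXCL2, CXCL3, CXCL8, CXCL10 and NFKBIZ. Of the 228 that rose, 1 held them, the methionine sulfoxide reductase gene MSRB3 (0.59). Among 21 tested NF-kB components and feedback genes with a window, 7 held the letters, whether or not they passed. A looser NF-kB pattern, GGGRNNYYCC (R for A or G, Y for C or T), was about as common in both directions. It occurred in 19% of the genes that fell, 18.9% of those that rose and 17.3% of all 11514. Among the 25 largest falls it occurred in 7 of the 17 with a window, and among the 25 largest rises in 3 of 22. These shares were not tested. A match is a description of the sequence only.

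NF-kB components and feedback genes, whose transcription follows NF-kB activity and which in part restrain it, fell in 4 of 24 cases and rose in 0 (limma). The falling share was 16.7%, against 2.20% of all genes. At an unadjusted p under 0.05 (limma), 2 were higher and 12 lower. The list's median was -0.24, and 19 of the 24 differences were negative. PTGS2, the inducible cyclooxygenase, read 3.59 and 3.22 in TET2WT and 5.09 and 5.65 in Mock (-1.97 ± 0.23, adjusted p = 0.0116, limma). TNFAIP3, the ubiquitin-editing inhibitor A20, read 4.49 and 4.79 against 6.16 and 6.99 (-1.94 ± 0.14). NFKBIZ (-0.89 ± 0.14), an atypical inhibitor of the family, and SOD2 (-0.78 ± 0.11), the mitochondrial superoxide dismutase, fell less. The subunit genes themselves did not pass, with differences of -0.23 for NFKB1, -0.05 for NFKB2, -0.38 for RELB and 0.01 for RELA, nor did NFKBIA (-0.62) and ICAM1 (-0.70).

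The acute-phase and innate secreted proteins split evenly, with 23.8% falling and 23.8% rising, against 2.20% and 2.01% of all genes. Of 21 tested, 5 fell: FDCSP, PTX3, LCN2, the complement gene C3 (-1.64 ± 0.15) and the collagenase gene MMP1 (-1.11 ± 0.19). PTX3, a soluble pattern-recognition pentraxin, read 5.44 and 5.34 in TET2WT and 8.93 and 8.85 in Mock, and LCN2, an iron-scavenging lipocalin, read 3.03 and 4.40 against 6.25 and 7.67. The other 5 that passed rose: the complement regulators CFI (1.24 ± 0.14) and CD59 (0.50 ± 0.086), the complement protease C1R (0.70 ± 0.097), the plasminogen activator PLAT (1.13 ± 0.095) and the glycoprotein hormone STC1 (1.07 ± 0.15). Of 27 interleukins and their receptors 4 rose (14.8%) and 1 fell (3.7%), against 2.01% and 2.20% of all genes. IL1B, the inflammatory cytokine interleukin-1 beta, read 4.02 and 3.85 in TET2WT and 2.83 and 2.93 in Mock (1.06 ± 0.10, adjusted p = 0.00701, limma). The oncostatin M receptor gene OSMR (1.33), IL11 (0.76) and IL17RA (0.47) rose as well, and IL17RD (-1.15) fell. Averaged over its probe sets, IL17RA differed by 0.20 and did not pass.

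Interferon-response genes, the antiviral effectors downstream of STAT transcription factors, rose in part. Of 45 tested, 13 rose and 0 fell (28.9% rising, against 2.01% of all genes, limma), and at an unadjusted p under 0.05 there were 21 higher and 2 lower. The list's median was 0.30, with 35 of 45 differences above 0. IFITM1, a membrane protein that blocks virus entry, read 4.53 and 4.57 in TET2WT and 2.66 and 2.99 in Mock (1.73 ± 0.12, adjusted p = 0.00194, limma). The other 12 were smaller, from PARP9 (0.93 ± 0.14), USP18 (0.85 ± 0.093) and ISG20 (0.81 ± 0.13) to IFIH1 (0.51 ± 0.095), an RNA sensor. ISG15, the ubiquitin-like modifier, read 6.38 and 6.41 against 5.74 and 5.70, and the dynamin-like MX1 read 4.34 and 4.10 against 3.64 and 3.39. IFI44, in the same list, had a difference of -0.67 and did not pass, and neither did the transcription factor genes IRF7 (0.29) and IRF9 (0.64). CXCL10, also an interferon target by textbook knowledge, was among the chemokines that fell.

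GAAANNGAAA occurred in the promoter windows of 8 of the 11 interferon-response genes that rose and had a window (72.7%) and of 22 of the 35 tested ones with a window (62.9%), against 434 of all 11514 (3.77%). The list holds genes long known to carry this element, so the share describes the list. In IFITM1 the match shown began 40 bases before the start, and in ISG15 the first of 2 overlapping matches began 113 bases before it. The antigen presentation genes of MHC class I, many of which respond to interferon, rose in 1 of 22 cases, the immunoproteasome subunit gene PSMB9 (0.57 ± 0.11), with 8 higher and 0 lower at an unadjusted p under 0.05 and a median of 0.16. The transporter gene TAP1 (0.44), the class I regulator NLRC5 (0.52), HLA-B (0.34) and HLA-C (0.36) did not pass.

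**Figure D3:**
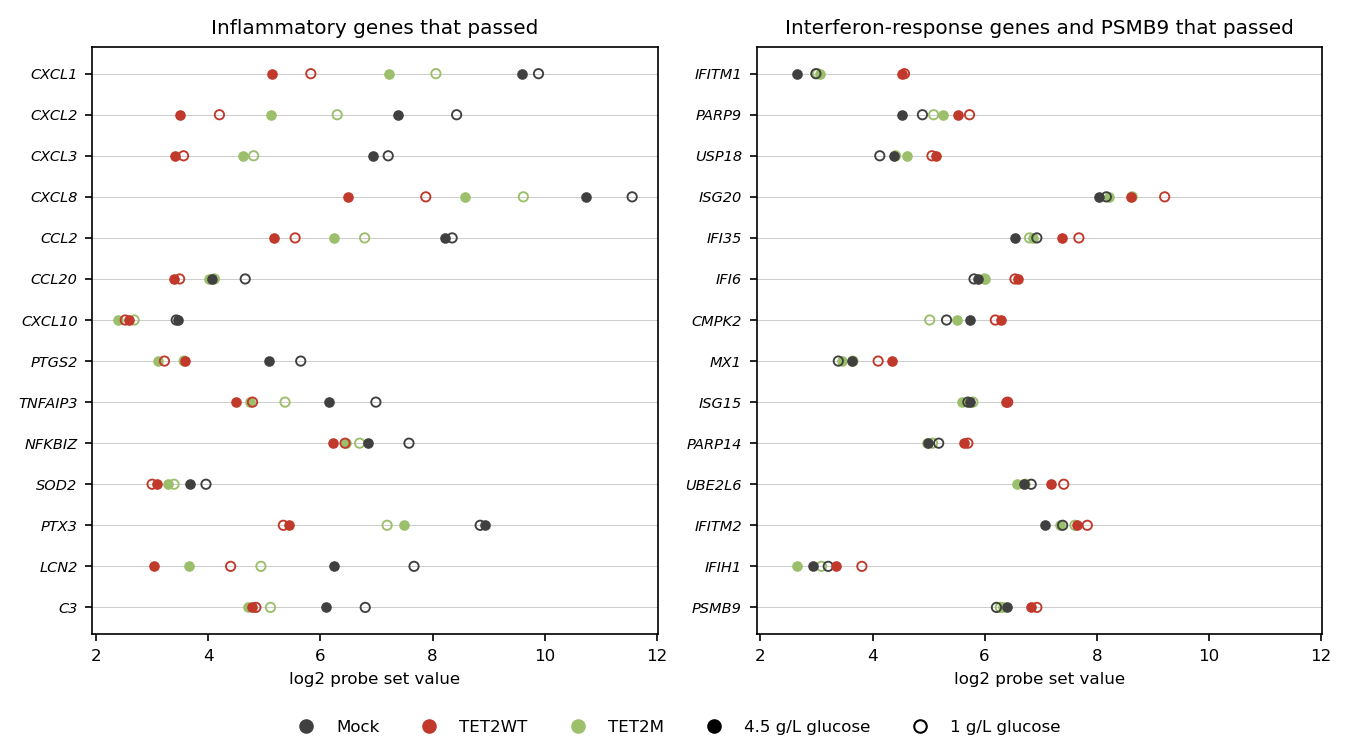
Log2 probe set value on each array of 14 chemokine, NF-kB and innate genes that fell (left) and of 13 interferon-response genes and PSMB9 that rose (right). Filled points are 4.5 g/L and open points 1 g/L glucose, with Mock in black, TET2WT in red and TET2M in green. At left the TET2WT points lie below the Mock points in every row, and at right above them, where TET2M lies near Mock in most rows.

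Matrix metalloproteinases, related ADAM and ADAMTS proteases and their inhibitors fell in 9 of 29 cases (31.0%, against 2.20% of all genes, limma). They rose in 2 (6.9%, against 2.01%), and the median was -0.13. MMP9, a gelatinase, read 3.31 and 3.11 in TET2WT and 5.76 and 5.47 in Mock (-2.41 ± 0.15, adjusted p = 0.00147, limma), and the neutrophil collagenase gene MMP8 read 3.48 and 3.76 against 5.66 and 5.36. ADAM23 (-1.37 ± 0.093), MMP16 (-1.15 ± 0.12), MMP1, ADAMTS1 (-0.96), ADAMTS12 (-0.96), ADAM19 (-0.93) and the inhibitor gene TIMP2 (-0.50) also fell. The 2 genes that rose were both inhibitors. TIMP4 read 4.72 on both TET2WT arrays and 2.22 and 2.62 in Mock, and TIMP1 read 10.96 and 11.09 against 10.29 and 10.38 (0.69 ± 0.086).

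Genes of the extracellular matrix moved in both directions. Of 24 collagen genes 3 rose (12.5%) and 4 fell (16.7%), against 2.01% and 2.20% of all genes. COL6A3, a chain of microfibrillar collagen VI, read 7.12 and 6.94 in TET2WT and 5.64 and 5.38 in Mock (1.52 ± 0.087, adjusted p = 0.000951, limma), and its partner chain COL6A1 rose by 1.21 ± 0.11 and COL11A1 by 1.20 ± 0.13. COL8A1 (-0.75), COL5A2 (-0.72) and the basement membrane chains COL4A2 (-0.56) and COL4A1 (-0.52) fell. The COL4A1 and COL4A2 genes share a promoter region on chromosome 13, whose genes are described further on. Of 43 matrix glycoproteins and proteoglycans 4 rose, among them EFEMP1 (1.24) and FBLN1 (1.02), and 6 fell, among them lumican, LUM (-1.06), GPC6 (-0.99) and CSPG4 (-0.77), the melanoma-associated chondroitin sulfate proteoglycan. Of 27 integrin and laminin genes 2 rose and 0 fell, with 2 lower at an unadjusted p under 0.05 (limma). These were the laminin chain genes LAMA5, at 6.87 and 7.34 against 5.45 and 5.31, and LAMA4 (0.87). IGFBP3, which binds insulin-like growth factors, fell from 9.12 and 9.24 to 6.40 and 7.33 (-2.32 ± 0.20), and IGFBP6 fell by 0.99 on the log2 scale. IGFBP7 (0.67) and the protease gene HTRA1 (0.75), from the same list of 16, rose.

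Growth factors and receptor tyrosine kinases had 4 of 48 members rising and 4 falling. PDGFA, a ligand of the platelet-derived growth factor receptors, read 6.70 and 6.54 in TET2WT and 4.80 and 4.60 in Mock (1.92 ± 0.10, adjusted p = 0.000777, limma). PDGFC (0.84 ± 0.12), the lipoprotein lipase inhibitor gene ANGPTL4 (1.55 ± 0.17) and the receptor gene ERBB2 (0.65 ± 0.095) rose. Another ligand of the PDGF family, PDGFD (-1.42), the lymphangiogenic factor gene VEGFC (-1.11), the VEGF receptor gene FLT1 (-0.86), which lies on chromosome 13, and the pleiotrophin gene PTN (-0.68) fell. In the TGF-beta and BMP list 2 of 31 fell, the inhibitory SMAD6 (-1.18) and INHBA (-0.88), and 0 rose, with 2 higher and 5 lower at an unadjusted p under 0.05 (limma).

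Melanocyte identity genes changed little in number. Of 23 tested, 1 rose, the melanosome transport gene RAB27A (0.55 ± 0.094, but 0.27 and short of the threshold when averaged over its probe sets), and 1 fell, MITF, the master regulator of the lineage, at 6.40 and 6.30 in TET2WT and 6.96 and 6.93 in Mock (-0.60 ± 0.11, adjusted p = 0.0433, limma). SOX10, which defines the lineage, read between 9.38 and 9.65 on these 4 arrays, while the pigment genes TYR, TYRP1 and MLANA did not exceed the low-value level on any array. Of 34 genes of the undifferentiated, invasive melanoma state 1 rose, the lysyl oxidase gene LOXL2 (0.87), and 2 fell, INHBA and TWIST1 (-0.66), with AXL at 0.03 and ZEB1 at -0.18. Neural crest transcription factors had 3 of 32 rising, TFAP2A (0.97), DLX2 (0.63) and GLI3 (0.56), and 2 falling, SOX11 and ID3 (-1.13).

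The genes of DNA methylation other than TET2 showed small differences. Of 27 tested, the methyltransferase gene DNMT3A rose, at 4.40 and 4.58 in TET2WT and 3.86 and 4.15 in Mock (0.49 ± 0.088, adjusted p = 0.0430, limma). Averaged over its probe sets (0.34), without the glucose term, with an intensity trend in the variance or with every probe set tested, DNMT3A did not pass. TET3 fell on its brightest probe set, at 6.17 and 5.94 against 7.16 and 7.02. Further TET3 probe sets differed by -0.36 and 0.05, and with the mean of the probe sets TET3 (-0.45) did not pass. TET1 had a difference of -0.44 ± 0.11, close to background and short of the threshold, and DNMT1 one of -0.04. Among genes whose expression is set by DNA methylation by textbook knowledge, 3 of 21 imprinted genes rose (14.3%, against 2.01% of all genes). Of these 21, 0 fell, with 2 lower at an unadjusted p under 0.05 (limma). MEST read 4.81 and 4.70 against 2.83 and 2.47 (2.11 ± 0.18), PLAGL1 4.22 and 4.02 against 2.77 and 2.27, and the cell cycle inhibitor CDKN1C 7.51 and 7.77 against 6.38 and 6.73. The listed cancer-testis antigens, which are silenced by methylation in most tissues, fell in 4 of 18 cases (22.2%, against 2.20% of all genes). These were SSX1 (-2.16 ± 0.092), LIN28B (-1.59 ± 0.10), PAGE1 (-1.49 ± 0.16) and SPANXB1 (-0.83 ± 0.091). Of the 18, 1 rose, MAGEB2 (1.46 ± 0.11). CT55, which rose by more (1.96), was not in that list. LIN28B, an RNA-binding repressor of let-7 microRNAs, is in that list although it is better known as an oncofetal gene.

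The CG content of the promoter windows varied widely among the genes that moved. The median count of CG in 300 bases was 24 over all 11514 genes, 22 over the 228 that rose and 24 over the 258 that fell. At most 5 CG were found in every window of 7.85% of all genes, 14.0% of those that rose and 10.9% of those that fell. Of the promoters printed above, the 300-base window held 3 CG in HSD17B3, 8 in SEMA3G and 25 in CFAP251, and 22, 22, 24 and 4 in CXCL1, CXCL2, CXCL3 and CXCL8. Over the 22 of the 25 largest rises that had a window the median was 10.25, and 36.4% had at most 5 CG in every window. Over the 17 of the 25 largest falls with a window these values were 22 and 23.5%. These genes were chosen for the size of their difference, and the CG counts were not tested.

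Hypoxia-response genes outside glycolysis rose in 5 of 24 cases (20.8%, against 2.01% of all genes) and fell in 0. At an unadjusted p under 0.05 (limma), 13 were higher and 1 lower, and the median was 0.32. ANGPTL4 read 6.68 and 6.90 in TET2WT and 5.46 and 5.02 in Mock, and NDRG1, a stress-induced gene, 8.07 and 8.44 against 7.13 and 7.27 (1.06 ± 0.098). The mitophagy receptor BNIP3L (0.71), ANKRD37 (0.70) and the vasodilator peptide gene ADM (0.62) rose too, while VEGFA (0.19) did not pass. Of 35 glycolysis and pentose phosphate genes 3 rose and 0 fell, with 1 lower at an unadjusted p under 0.05 (limma): PDK4, which inhibits pyruvate dehydrogenase (1.34 ± 0.22), the aldolase gene ALDOC (0.85) and the enolase gene ENO2 (0.77). The main glycolytic enzymes ENO1 (-0.06), LDHA (0.08), PKM (0.11) and GAPDH (0.08 ± 0.086) did not pass, nor did ACTB (-0.07), and neither did TXNIP, the glucose-induced arrestin, at 6.40 and 4.25 in TET2WT and 5.39 and 4.16 in Mock.

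Several metabolic and housekeeping programs held few or no genes that passed. Of 46 nuclear-encoded respiratory chain subunits 0 passed, 0 had an unadjusted p under 0.05 in either direction (limma) and the differences ranged from -0.19 to 0.19. Of 24 cholesterol synthesis genes 0 passed, with 2 higher and 5 lower at an unadjusted p under 0.05, and of 38 ATF4 and amino acid response genes 0 passed, with 3 higher and 8 lower. ASS1, which makes argininosuccinate and is often silenced in melanoma, read 5.06 and 5.55 in TET2WT and 3.19 and 2.48 in Mock (2.47 ± 0.26, adjusted p = 0.00912, limma). The polyamine enzyme SAT1 (0.57) was the other member of its list of 16 that rose. Of 39 NRF2 targets and aldo-keto reductases 4 fell, AKR1C2 (-1.13 ± 0.10), AKR1C3 (-1.09 ± 0.17), AKR1C1 (-0.73 ± 0.12) and the transporter gene ABCC2 (-0.57), and GPX3 rose. The AKR1C genes are near-identical, so their probe sets may read each other's transcripts. In the steroid and retinoid enzymes, CYP1B1 (1.00) and CYP1A1 (0.57) rose beside HSD17B3, and 0 of 28 fell, with 1 lower at an unadjusted p under 0.05 (limma).

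Proliferation genes leaned slightly below 0. Of 45 G1/S and DNA replication genes 37 had negative differences, with a median of -0.16, but 2 fell and 0 rose, with 11 lower and 0 higher at an unadjusted p under 0.05 (limma). These were the clamp loader subunits RFC3 (-0.74 ± 0.094), which lies on chromosome 13, and RFC5 (-0.49 ± 0.089). Of 45 G2/M genes 0 passed, with 6 lower at an unadjusted p under 0.05 and 0 higher, and MKI67 stood at -0.22. Of 28 p53 targets 0 passed, with 8 lower and 1 higher, and CDKN1A stood at -0.03. Of 23 YAP targets 3 fell and 0 rose, with 11 lower and 2 higher at an unadjusted p under 0.05 (limma). The 3 were WWC1 (-0.57), STARD13 (-0.53), which lies on chromosome 13, and MYOF (-0.48). ANKRD1, the member with the largest difference (-1.44), did not pass.

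**Figure D4:**
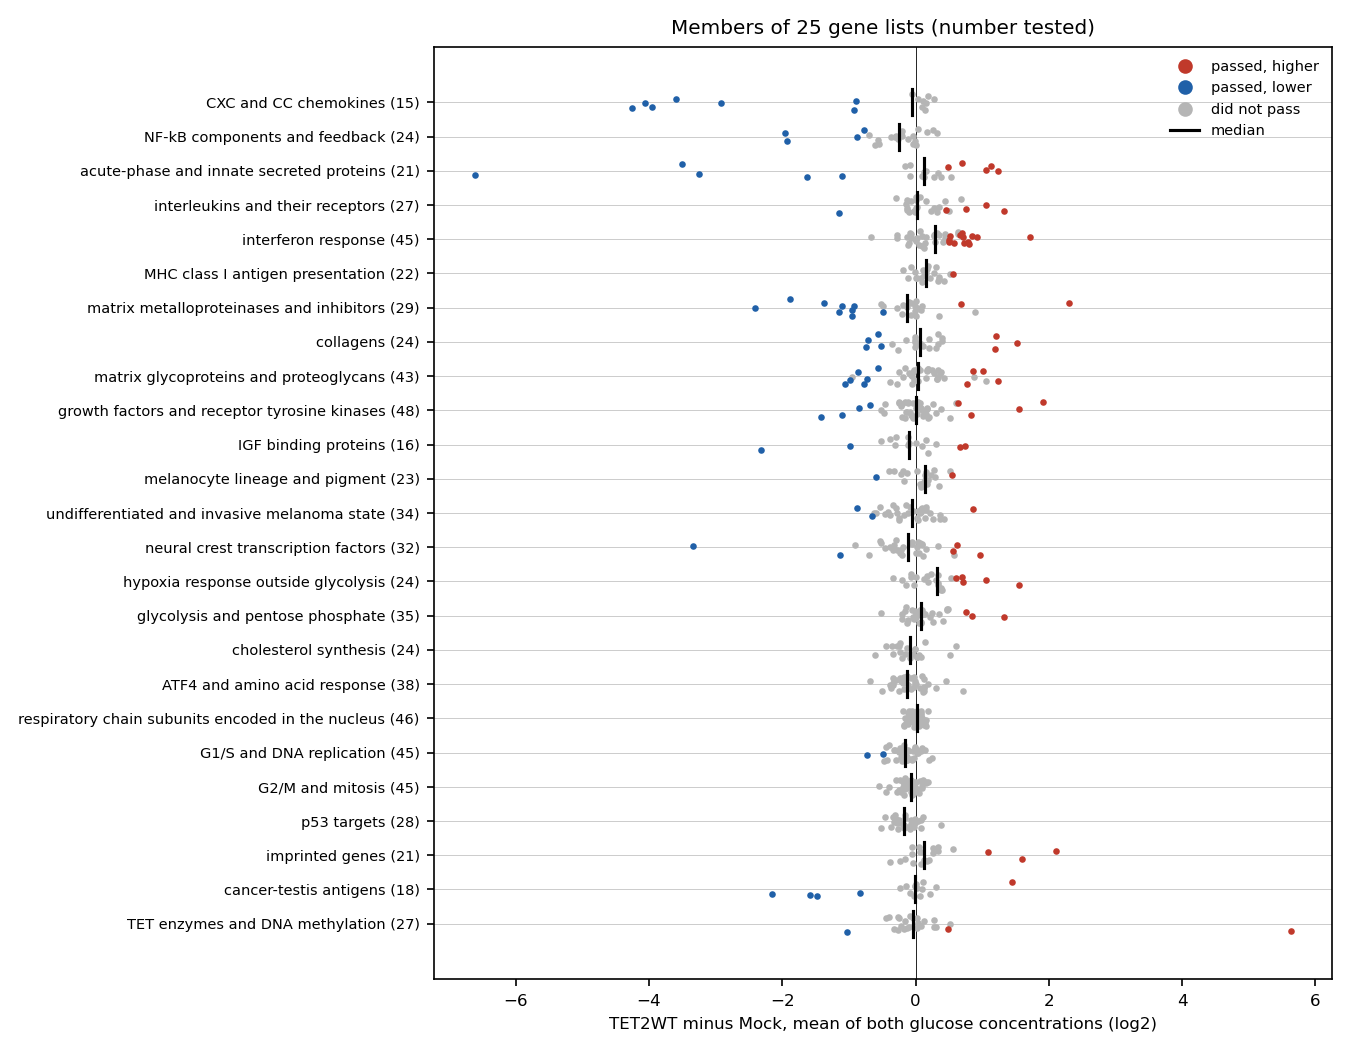
Log2 difference of TET2WT minus Mock for each tested member of 25 gene lists, with the number tested in brackets. Points in red rose, points in blue fell and grey points did not pass, and the black bar is the median of the list. Chemokine members reach -4.26 with a median of -0.06, interferon-response members that passed all lie above 0, and the respiratory chain subunits lie within 0.19 of 0.

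The genes that passed were spread over the chromosomes with 1 exception. On chromosome 13, 56 of 257 tested genes fell (21.8%) and 3 rose, the median difference was -0.32 and 205 differences were negative. Over the other 21 autosomes the share that fell ran from 0.379% to 4.32% and the medians from -0.06 to 0.03. The largest falls there were small beside those of the chemokines, with SPRYD7 at -1.14, KLF12 at -1.03, SUCLA2 at -1.02 and GPC6 at -0.99. Without chromosome 13, 262 genes remained in the falling group, and with that chromosome left out of the fit 525 genes passed.

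**Figure D5:**
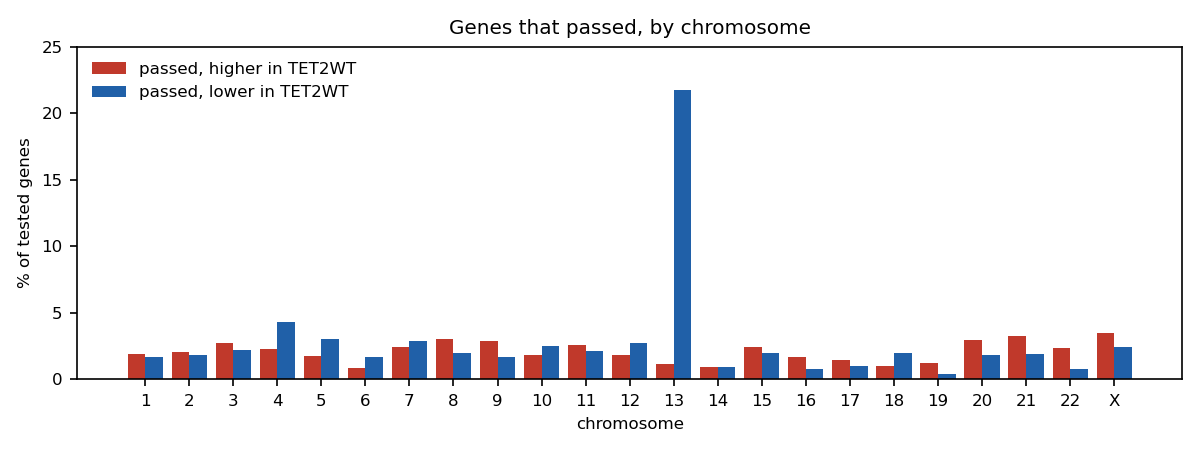
Share of the tested genes on each chromosome that rose (red) or fell (blue) in TET2WT, as a percentage (vertical axis, from 0). The share that fell is 21.8% on chromosome 13 and at most 4.32% on any other autosome.

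Markers of other cell types were looked at because cultures can be mixed. Of 10 melanocyte lineage markers on the array 7 were above the low-value level on all 6 arrays. Their summed linear signal was 1784 and 1918 in TET2WT and 1784 and 1777 in Mock. The summed signal of 14 fibroblast markers was higher in TET2WT (296 and 266) than in Mock (187 and 186), with COL6A3 and FBLN1 higher and LUM lower. Of these 14, 8 were above the level on all 6 arrays, among them COL1A1, DCN and THY1. Another 4, among them COL3A1, FAP and POSTN, were below it on every array. For 15 leukocyte markers the summed signal was 273 and 303 against 213 and 212. Most of the list did not follow this sum: of the 9 tested for a difference between the lines, 3 lay above 0 and 6 below, and LAPTM5 had the largest rise. Of the 15 leukocyte markers, 7 were above the level on all 6 arrays, among them CD3D and CD79A, and 6 were below it on every array. LAPTM5, a lysosomal protein of blood cells, read 6.85 and 7.30 against 4.87 and 4.91. LYZ, the lysozyme gene, was lower in TET2WT, at 5.64 and 5.39 against 6.35 and 6.21, while PTPRC, MS4A1, CD2 and CSF1R stayed below the level on every array. The part of such cells in the results was not tested. The 13 keratinocyte markers summed to 1093 and 862 in TET2WT and 1036 and 954 in Mock, with overlapping ranges, although KRT14 fell from 6.86 and 6.38 to 4.55 and 3.89. The 13 endothelial markers summed to 162 and 153 against 182 and 175. ROBO4 was lower, at 5.09 and 4.72 against 6.11 and 5.69, but of the 9 endothelial markers tested 5 differences lay above 0 and 4 below. Of the 13 endothelial markers, 8 were above the level on all 6 arrays, among them PECAM1 and VWF, and 3, among them CDH5, were below it throughout. The 3′ minus 5′ difference of the ACTB control probe sets, a measure of RNA integrity, was 2.06 and 1.90 in TET2WT and 2.02 and 1.94 in Mock. For the GAPDH control probe sets it was 0.35 and 0.25 in TET2WT and 0.29 and 0.32 in Mock.

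Where a gene had further probe sets above the level, these could be set beside the one used. Of 148 such genes that rose, all further probe sets lay on the same side of 0 for 124 (83.8%), and of 177 that fell for 142 (80.2%), against 3495 of 6721 genes that did not pass (52.0%). These shares compare signs and not sizes. A further probe set at least 1.5-fold apart on the same side at both concentrations was found for fewer: 48 of the 148, 54 of the 177 and 68 of the 6721. No further probe set of a gene that passed was 1.5-fold or more apart in the opposite direction at both concentrations. With the mean of the probe sets of a gene in place of the brightest, the differences of COL6A1 (0.44), LOXL2 (0.29), SMAD6 (-0.32), ADAM19 (-0.46), FLT1 (-0.40), ANKRD37 (0.31), DLX2 (0.37) and AKR1C1 (-0.39) were smaller and did not pass. CD59 (0.43), RFC5 (-0.37) and BNIP3L (0.59) missed the threshold as well. MX1, IFIH1, GLI3, TIMP2 and IL17RA each missed it under 3 or more alternatives that kept all 6 arrays.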

How the data were processed

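Total RNA of the 6 cell samples was hybridised to Affymetrix arrays that carry 54675 probe sets, per the labels. The authors deposited log2 values, which the submitters' processing notes credit to Affymetrix Expression Console, and the summary method is not given in the sources used here. Values ran from 1.56 to 13.78, and the largest gap between sorted columns was 0.12, so the arrays had been scaled to a shared distribution, which says nothing of their quality. Precision is limited by how few arrays there are.

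The 62 controls were left out, as were 1801 probe sets that name several genes and 11777 that name no gene. Symbols of 41037 of the 41091 single-gene probe sets were updated by gene ID (GRCh38.p14). Genes were kept where the mean over 6 arrays reached the 40th percentile, with the brightest probe set for each gene.

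An additive model of line and glucose was fitted to all 6 arrays with limma 3.58.1 in R 4.3.3, with two-sided moderated tests and Benjamini-Hochberg adjustment over 14428 genes, after being tested on simulated data. Tables and figures used data.table (version 1.17.8), Python 3.11.15, pandas 2.3.3 and matplotlib 3.10.9. The 56 lists held 1813 genes, 1399 of them tested. The members and the lists were chosen with earlier results of these data known. Named genes were the 25 rising and 25 falling with the largest smaller-of-both difference, passing over placeholder names, with list members that passed (or the largest), TET1, TET2, TET3, TXNIP, GAPDH and ACTB. Other members that did not pass were named for their known role, with their values in view. Lists not described held at most 5 genes that passed. The most were 5 of 42 in semaphorins, plexins and axon guidance, 2 rising and 3 falling. Of 12 MHC class II genes 2 fell (16.7%). Alternatives varied the arrays, the terms, the variance model, the probe set, the filter and the scaling.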

Additional observations from a re-analysis of the deposited data

Results flagged for a closer look

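At least 1.5-fold apart in opposite directions at the different concentrations were 6 genes, given here as TET2WT minus Mock at high and then normal glucose: BAGE2 (-0.64 and 0.62), FLG (0.88 and -0.60), RTEL1 (0.75 and -0.83), ZNF416 (-0.59 and 0.64), ZNF606 (0.71 and -0.66) and ZNF668 (-0.83 and 0.68). Each value rests on 1 array a group, and the difference between the concentrations was not tested. FLG, the epidermal barrier protein filaggrin, read 8.08 and 5.70 in TET2WT and 7.20 and 6.30 in Mock, and 3 of the others encode zinc finger proteins.

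Among 5727 probe sets above the low-value level that name several genes or none, which the comparison did not use, 9 were at least 2-fold higher in TET2WT at both concentrations and 8 at least 2-fold lower.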

How the results depend on the processing

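The count of 608 genes (290 rising, 318 falling) was 16 (5 and 11) with only the TET2WT and Mock arrays, all of them among the 608 and at least 2-fold apart. It was 318 (162 and 156) without the glucose term and 1528 (656 and 872) with an intensity trend in the variance. Leaving out each array in turn gave from 0 to 16 genes, 0 to 5 rising and 0 to 11 falling, and from 0 to 16 at least 2-fold apart, since 1 residual degree of freedom remained. The other alternatives gave from 525 (without chromosome 13) to 791 (the higher filter). With quantile normalization 374 rose and 305 fell, and with cyclic loess 386 and 306. The rule of 1.5-fold at both concentrations gave 615 probe sets when every probe set was counted and 124 genes at 2-fold. No named gene or list member that passed changed direction under any alternative, while 28 of them missed the threshold with the mean of the probe sets of a gene, 61 without the glucose term and 167 with only the TET2WT and Mock arrays. Over the alternatives that kept all 6 arrays, apart from the one counting every probe set, 6 or 7 chemokine genes fell, 5 to 17 interferon-response genes rose, 5 to 11 protease and inhibitor genes fell and 3 to 12 hypoxia genes rose. Lists with few or no genes that passed moved too. Up to 8 MHC class I genes rose, and up to 7 G1/S, 6 ATF4, 5 G2/M and 4 p53 target genes fell. The respiratory chain subunits stayed at 0. The glucose term pairs the lines by concentration, so the fit without it is the unpaired one, and the labels give no replicate numbers for a further pairing. The number of arrays and signals near background limit the falls of FDCSP, TENM2, ELAVL2 and ZFPM2 and the rises of UTS2, CHRNA9, TIMP4 and MBL2. A single array also lay below the low-value level for MEST and ASS1 (Mock at normal glucose, 2.47 and 2.48) and for SORCS1 (TET2WT at high glucose, 2.04). These differences were in part measured against background.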

Other observations

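Of 27 neuropeptide and hormone genes 4 rose, among them CPE (0.90 ± 0.11), which processes peptide hormones, and 1 fell, galanin, GAL, at 5.37 and 5.40 in TET2WT and 6.90 and 6.71 in Mock (-1.42 ± 0.11, adjusted p = 0.00388, limma). The potassium channel gene KCNJ2 read 3.65 and 3.73 against 5.13 and 5.19 (-1.47 ± 0.086), and the muscarinic receptor gene CHRM3 fell by 0.77 on the log2 scale. Of 34 regulators of G protein signalling 4 rose, among them RAMP1, a coreceptor of the calcitonin receptor family (1.08), and RGS2 (0.82), and 2 fell, ADGRL4 (-1.22) and LPAR6 (-0.87), which lies on chromosome 13.

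Of 25 fatty acid oxidation genes 2 rose and 0 fell, with 4 higher and 1 lower at an unadjusted p under 0.05 (limma). The mitochondrial carrier gene UCP2 read 7.84 and 7.85 in TET2WT and 6.64 and 6.70 in Mock (1.18 ± 0.096, adjusted p = 0.00419, limma). The brain carnitine transferase gene CPT1C (0.77) was the other. Of 27 fatty acid synthesis and storage genes 2 rose, the acyl-CoA synthetase gene ACSL5 (0.93) and the lipid droplet protein gene PLIN2 (0.54), and 0 fell. At an unadjusted p under 0.05 (limma) 3 of these were higher and 10 lower, and the median was -0.09. With the mean of their probe sets PLIN2 (0.31), CHRM3 (-0.37) and HOXB8 (0.58) did not pass. Of 26 homeobox genes of the HOX clusters 1 rose, HOXB8 (1.04 ± 0.18), and 0 fell, with 6 higher and 2 lower at an unadjusted p under 0.05 (limma). Of 40 Polycomb and chromatin modifier genes 1 fell, the deacetylase gene HDAC9 (-1.18 ± 0.16), and 0 rose, with 1 higher and 7 lower at an unadjusted p under 0.05 (limma). The falling share of 2.5% was near the 2.20% of all genes.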
